A study of Rattus norvegicus with 35 samples.

Results

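The genes examined here encode enzymes and cofactors of DNA repair and replication: Pcna, Polb, Parp1, Ogg1, Mgmt, Apex1, Polg2, Top1 and Lig1. The probe-sets were chosen as all those of the array whose only annotated symbol is one of these 9 genes, which gave 13 of the 8740 probe-sets tested and 8 of 4736 genes. Lig1, a DNA ligase of replication, had no such probe-set and was dropped. Pcna, Parp1 and Mgmt had 2, 2 and 2 probe-sets, Polb had 3, and each of the others had 1. All groups come from ventricles of neonatal rat hearts, separated by pre-plating into cultures enriched for cardiomyocytes (CM) and cultures of fibroblasts, and the labels name no genotype, transgene or strain. The treated groups were sampled 24 h after 10 J/m2 of UVC (UV), 24 h after 8.5 Gy of X-rays (IR), or directly after cyclic stretch that lasted 24 h (MS), and each has its own sham-treated or unstretched controls. After UV and IR the CM were enriched further by elutriation (CM-enriched fractions), but the methods state that a part of the cells was not CM. Each group holds 3 arrays (RG-U34A, an oligonucleotide array with several probe-sets for some genes), except the sham-UV controls of CM-enriched fractions, which number 2. UV-treated CM array 3 had no control, so that comparison rests on 2 pairs.

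Cells repair DNA damage by routes that differ with the lesion. UVC mainly joins neighbouring pyrimidines, which are cut out by nucleotide excision repair, whereas X-rays break strands and oxidise bases, and the oxidised bases and single-strand breaks go through base excision repair. In base excision repair a glycosylase such as Ogg1 removes the damaged base, Apex1 cuts the strand at the empty site, Polb fills the gap and Parp1 marks the break. Mgmt works alone and transfers an alkyl group from guanine onto itself. Pcna is the sliding clamp that holds polymerases on DNA during replication and repair synthesis, Top1 releases the twist ahead of moving polymerases, and Polg2 is the accessory subunit of the mitochondrial DNA polymerase. Most cardiac myocytes leave the cell cycle soon after birth, while cardiac fibroblasts can divide in culture.

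Values are normalized intensities, on a linear scale unless log2 is stated, and a change is the log2 difference of treated over control within the numbered experiment. A probe-set was called at an adjusted p under 0.05 in limma, with the p values adjusted by Benjamini-Hochberg over the 8740 probe-sets. Within groups, Spearman correlations between arrays lay between 0.925 and 0.98, and 14.5% to 24.7% of the values of an array lay at the floor set for low values. Sham-UV and sham-irradiated CM-enriched fractions had higher values than the fibroblasts treated alike for 15 of 15 myocyte markers. They had lower values for 12 of 13 fibroblast markers (S100a4 was the exception), in accordance with the labels. Unstretched cultures did not enter this comparison, in which 16% of all probe-sets were called higher and 17.4% lower. In cultures of fibroblasts after UV, 13 of 15 myocyte markers and 6 of 13 fibroblast markers fell, against 11.2% of all probe-sets. The summed myocyte markers there lay between 9880 and 14030 after UV and between 24660 and 28230 in sham-UV controls. In CM-enriched fractions after UV, 4 of 15 myocyte and 4 of 13 fibroblast markers fell, against 8.16% of all probe-sets. The myocyte sums there lay between 59290 and 65660 after UV and between 73280 and 77400 in controls. After IR no marker of either list was called, but only 0.732% of all probe-sets were in CM-enriched fractions and 0.0801% in fibroblasts. No myocyte marker was at the floor on any CM array. The part of these shifts in cell makeup in the UV results below was not tested, and in such samples fewer cells of a type cannot be told apart from less RNA per cell.

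After UV 6 of the 8 genes had a called probe-set in each population, whereas after IR only Mgmt was called, and only in CM-enriched fractions. In UV-treated CM-enriched fractions 6 of 13 probe-sets rose (1 of Pcna, 2 of Polb, Apex1, Polg2 and Top1) and 1 of Mgmt fell, against 16.8% of all probe-sets called (8.62% higher and 8.16% lower). In cultures of fibroblasts after UV, 7 rose (both of Pcna, 2 of Polb, Parp1, Polg2 and Top1) and the same Mgmt probe-set fell, against 22.9% of all (11.7% higher and 11.2% lower). The median change of the 13 probe-sets was 0.56 in CM-enriched fractions and 0.30 in fibroblasts after UV, beside medians of 0.00 over all probe-sets. The single call in CM-enriched fractions after IR was a rise, against 0.732% of all probe-sets (0.286% higher and 0.446% lower). In fibroblasts after IR limma called 0 of 13, against 0.0801% of all, and 2 had an unadjusted p under 0.05. The median changes after IR were 0.00 in CM-enriched fractions and -0.08 in fibroblasts. At an adjusted p of 0.005 in limma, 3 probe-sets were called in CM-enriched fractions and 5 in fibroblasts after UV, and 0 in either after IR. The study used the same level for a model of single probe signals, so these counts cannot be set beside its own. Of all probe-sets, 6.76% and 13.3% passed that level after UV and 0.297% and 0.0114% after IR. Treated and control arrays did not overlap for 11 of 13 probe-sets in CM-enriched fractions after UV and for 7 in fibroblasts, against 31.9% and 29.8% of all probe-sets. After IR this held for 7 in CM-enriched fractions and 2 in fibroblasts, against 8.46% and 4.59%. The UV counts depend on single experiments. In CM-enriched fractions, leaving out replicate 1 or replicate 2 leaves 1 pair, and calls were lost both times, more of them without replicate 1. Without replicate 3, which has no control there, only the call of Polb rc_AA957640_s_at was lost. In fibroblasts 4, 5 and 5 probe-sets were called without replicate 1, 2 and 3.

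**Figure D1:**
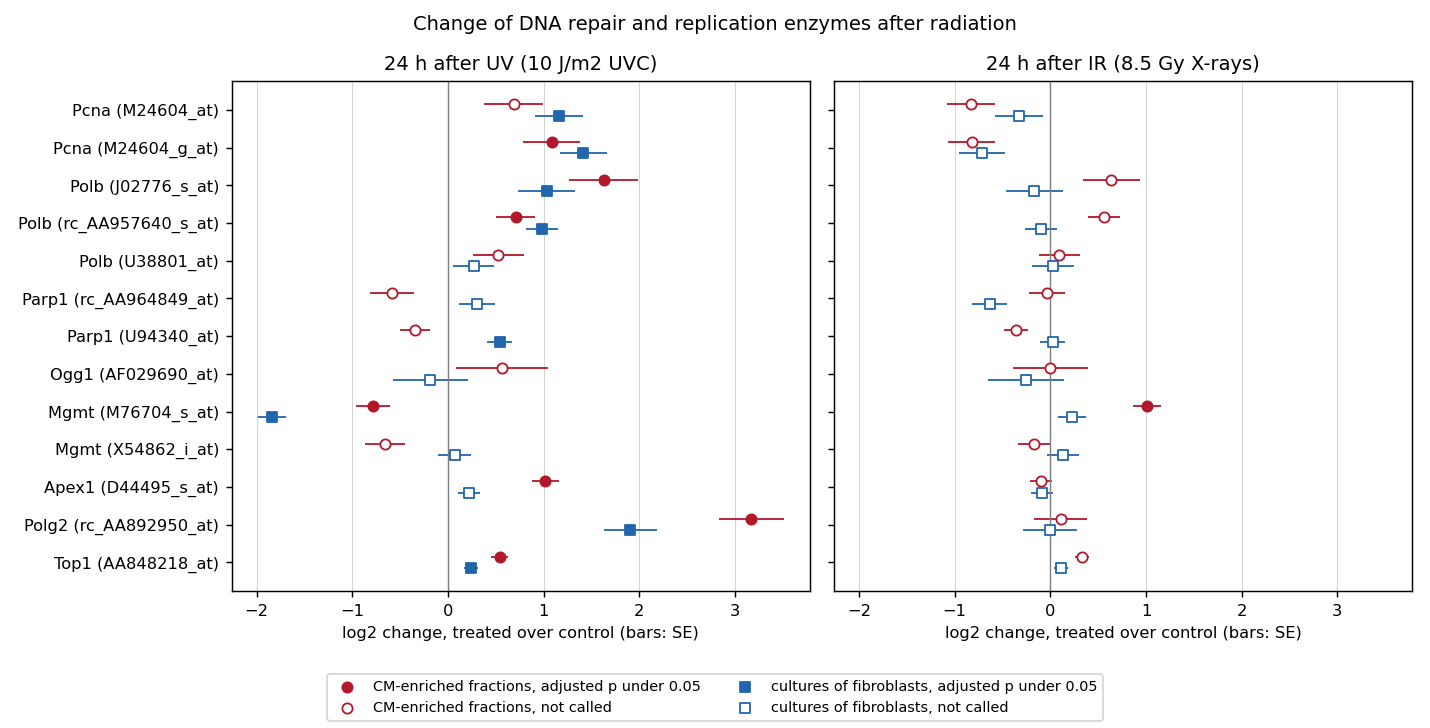
Changes of the 13 probe-sets 24 h after UV (left) and IR (right), as log2 of treated over control with standard errors, in CM-enriched fractions (red circles) and cultures of fibroblasts (blue squares). Filled symbols passed an adjusted p of 0.05, as 7 and 8 probe-sets did after UV, but only 1, Mgmt in CM-enriched fractions, did after IR.

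Mgmt (chromosome 1, 201140832 to 201367481 in GRCr8), the alkyltransferase of direct reversal, was the only enzyme called in opposite directions after the 2 kinds of radiation, on 1 of its 2 probe-sets. Its promoter is shown because of this, from 250 bases before to 50 after the start, with CACGTG (the E-box) and TGACG (the core of the cyclic AMP response element, here read on the other strand) in capitals.
Mgmt promoter, RefSeq GRCr8, chr1:201140582-201140881, plus strand: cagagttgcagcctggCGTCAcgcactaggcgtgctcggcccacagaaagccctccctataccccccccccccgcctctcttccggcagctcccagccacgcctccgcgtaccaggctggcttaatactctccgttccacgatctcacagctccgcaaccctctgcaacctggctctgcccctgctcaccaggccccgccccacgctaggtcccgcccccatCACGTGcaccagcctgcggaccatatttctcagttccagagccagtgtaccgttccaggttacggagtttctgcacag
The E-box lies at -28 and the TGACG match at -234 from the start. Searched on both strands, CACGTG occurs in 6.42% and TGACG in 21.2% of 33469 rat promoters of the same length, so that these matches only describe the sequence, and no match in capitals overlaps another. On probe-set M76704_s_at, CM-enriched fractions had normalized intensities of 757.7, 773.1 and 595.4 after IR, and 323.0, 368.4 and 356.9 in sham-irradiated controls. After UV they had 218.2, 276.0 and 292.4, with 448.2 and 398.0 in sham-UV controls. The groups did not overlap in either comparison, and Mgmt was above its controls after IR and below them after UV. The rise after IR was 1.01 on the log2 scale (SE 0.15, adjusted p = 0.00538, 2.02-fold) and the change after UV was -0.78 (SE 0.18, adjusted p = 0.0108, 1.72-fold lower). In cultures of fibroblasts Mgmt had 314.6, 206.0 and 288.5 after UV, and 946.6, 1041 and 871.0 in controls. After IR the fibroblasts had 1537, 1160 and 1305, and 1143, 1081 and 1180 in controls. All 3 UV arrays were thus far below every fibroblast control, while the IR arrays overlapped with theirs. The change of fibroblasts after UV was -1.84 (SE 0.15, adjusted p = 2.22e-06, 3.58-fold lower), and after IR it was 0.22 (adjusted p = 0.863). The fall in fibroblasts kept its call under all 11 alternatives of the processing. The rise after IR lost it when any replicate was left out, with IR and UV arrays only, and with the array lot as a block (highest adjusted p 0.187, values 0.90 to 1.15), and the fall in CM-enriched fractions lost it without replicate 1 (-0.53, adjusted p = 0.337). The dim second probe-set, X54862_i_at, with 39.5 to 87.6 on all arrays, was not called in any comparison. It had the same sign in CM-enriched fractions after UV (-0.66, adjusted p = 0.0515), but differed in CM-enriched fractions after IR (-0.17, SE 0.17, adjusted p = 0.837) and in fibroblasts after UV (0.07, adjusted p = 0.927).

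**Figure D2:**
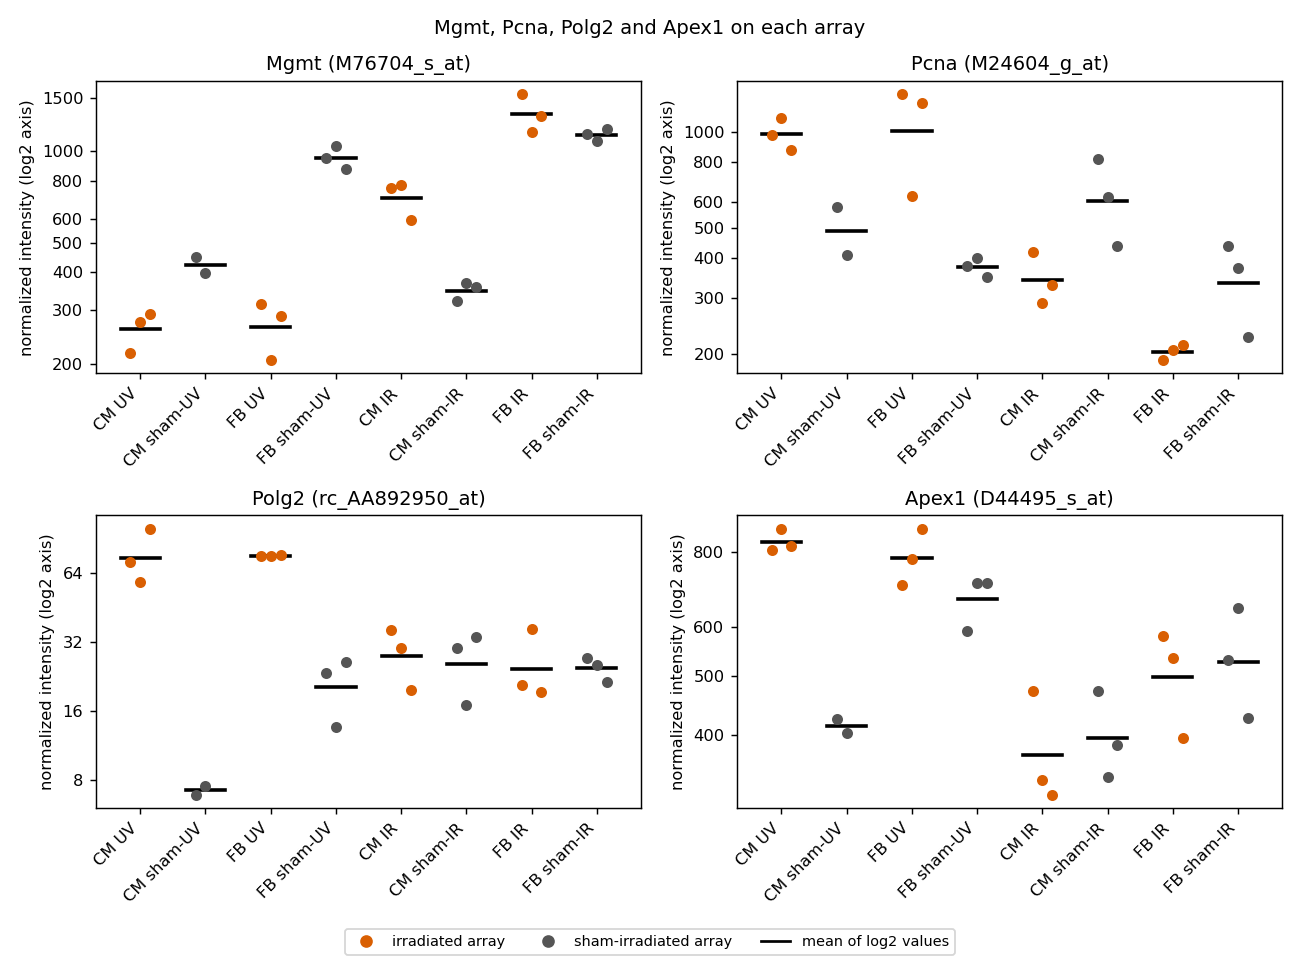
Normalized intensity (log2 axis) of Mgmt, Pcna, Polg2 and Apex1 on each array of the UV and IR experiments, irradiated in orange and sham-irradiated in grey, with the mean of the log2 values as a line (FB, cultures of fibroblasts). Mgmt is below its controls after UV in both populations and above them in CM-enriched fractions after IR, and Polg2 lies between 58.6 and 99.7 on all UV-treated arrays.

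Among the enzymes of base excision repair, Apex1 (chromosome 15, 26618146 to 26620330), which cuts DNA at empty sites and also acts as a redox factor for transcription factors, rose in CM-enriched fractions after UV. Its promoter is shown because it holds 3 E-boxes (capitals), at -56, -32 and -11 from the start used for the promoter sequence. That start lies downstream of the gene start of 26618146, so that all 3 lie inside the gene interval given above. Although 3 or more occur in 0.0568% of all rat promoters of this length, these matches only describe the sequence, and a link to the rise was not tested.
Apex1 promoter, RefSeq GRCr8, chr15:26617976-26618275, plus strand: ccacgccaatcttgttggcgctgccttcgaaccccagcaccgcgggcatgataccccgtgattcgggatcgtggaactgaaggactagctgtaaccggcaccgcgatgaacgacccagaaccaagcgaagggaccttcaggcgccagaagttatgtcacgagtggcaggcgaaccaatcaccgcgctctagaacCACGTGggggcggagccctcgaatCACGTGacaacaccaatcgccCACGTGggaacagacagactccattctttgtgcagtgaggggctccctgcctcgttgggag
After UV the CM-enriched fractions had 804.4, 871.0 and 816.7, and their controls 423.9 and 402.4. The fibroblasts had 704.0, 777.0 and 872.1 after UV, and 593.2, 710.9 and 710.0 in controls. In CM-enriched fractions the groups were far apart, and in fibroblasts they overlapped. The change was 1.02 (SE 0.14, adjusted p = 3.90e-04, 2.03-fold) in CM-enriched fractions and 0.22 (SE 0.11, adjusted p = 0.211) in fibroblasts. The call in CM-enriched fractions held under all 11 alternatives, with changes from 0.93 to 1.11. After IR, Apex1 changed by -0.10 (adjusted p = 0.894) in CM-enriched fractions and by -0.08 (adjusted p = 1) in fibroblasts, with values of 318.5 to 470.9 after IR and 340.2 to 471.5 in controls of CM-enriched fractions.

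Polb (chromosome 16, 76081903 to 76105174), the polymerase that fills the gap, rose after UV in both populations on 2 of 3 probe-sets. On rc_AA957640_s_at the CM-enriched fractions had 223.5, 224.4 and 227.9 after UV, and 123.0 and 153.1 in controls. The fibroblasts had 281.1, 241.7 and 267.6 after UV, and 108.1, 137.1 and 159.2 in controls. Every UV-treated array was above every control of its population. The changes were 0.71 (SE 0.20, adjusted p = 0.0333) in CM-enriched fractions and 0.98 (SE 0.17, adjusted p = 8.45e-04) in fibroblasts. On J02776_s_at, which ran from 70.9 to 92.0 on UV-treated and from 25.8 to 47.1 on sham-UV arrays, the changes were 1.63 (SE 0.36, adjusted p = 0.00836) and 1.03 (SE 0.29, adjusted p = 0.0225). The third probe-set, U38801_at, was not called, with 0.53 (adjusted p = 0.224) in CM-enriched fractions and 0.27 (adjusted p = 0.485) in fibroblasts. After IR the CM-enriched fractions had 120.9, 152.2 and 139.3 on rc_AA957640_s_at, all above their controls of 85.9, 77.4 and 120.2, but the change of 0.56 did not pass (adjusted p = 0.206). The fibroblast call on rc_AA957640_s_at held under all 11 alternatives, whereas that in CM-enriched fractions was lost under 5 of 11, leaving out any replicate among them (highest adjusted p 0.284), and the 2 calls on J02776_s_at were lost without replicate 1 or without replicate 2 (highest adjusted p 0.318 and 0.197).

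Ogg1 (chromosome 4, 148030237 to 148037599), the glycosylase for oxidised guanine, was not called in any comparison. Its values spread widely within groups, with 45.4, 45.9 and 70.3 in CM-enriched fractions after UV, and 14.0 and 68.4 in controls. The change there was 0.56 with an SE of 0.48 (adjusted p = 0.535), which was -0.58 without replicate 1. After IR it was 0.00 (SE 0.39) in CM-enriched fractions and -0.25 (SE 0.39) in fibroblasts.

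Parp1 (chromosome 13, 94839484 to 94871295), which senses strand breaks and builds poly(ADP-ribose), differed between the populations in its change after UV. On U94340_at the fibroblasts had 186.2, 253.2 and 224.6 after UV, and 149.3, 142.2 and 161.9 in controls, without overlap. The CM-enriched fractions had 429.3, 580.5 and 531.1 after UV, and 526.7 and 762.3 in controls, with overlap. Parp1 rose by 0.54 in fibroblasts (SE 0.13, adjusted p = 0.00843) and the change in CM-enriched fractions was -0.34 (SE 0.16, adjusted p = 0.175). The second probe-set, rc_AA964849_at, gave 0.30 (adjusted p = 0.312) in fibroblasts and -0.59 (adjusted p = 0.104) in CM-enriched fractions. After IR the CM-enriched fractions had 339.2, 348.1 and 346.7 on U94340_at, below all of their controls of 414.4, 480.0 and 435.2, with a change of -0.36 (adjusted p = 0.301). The fibroblast call was lost without replicate 2 or 3 (adjusted p = 0.0666 and 0.125).

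Of the 25 genes listed for base excision and single-strand break repair, 11 were measured, including the members above, each through its brightest probe-set. After UV 7 of them rose and 0 fell in CM-enriched fractions, against 8.62% of all probe-sets higher and 8.16% lower. In fibroblasts 5 rose and 1 fell, against 11.7% higher and 11.2% lower. The medians were 0.76 and 0.26. After IR 0 of 11 were called in either population by limma, against 0.732% and 0.0801% of all. Mpg, a glycosylase for alkylated bases, rose by 2.40 in CM-enriched fractions and 1.48 in fibroblasts after UV (adjusted p = 0.00236 and 0.00806). Fen1, the flap endonuclease of long-patch repair and of replication, rose in both (adjusted p = 0.0135 and 0.0035), by 0.94 in fibroblasts, and Parp2, another poly(ADP-ribose) polymerase, rose by 0.93 and 1.16 (adjusted p = 0.0302 and 0.00164). The gene of this list that fell was Tdp1, which releases trapped topoisomerase from DNA, with -1.16 in fibroblasts (adjusted p = 0.00233). Alkbh2, the other measured enzyme of direct reversal, rose by 0.80 and 0.81 after UV (adjusted p = 0.0125 and 0.00199), opposite to Mgmt.

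Pcna (chromosome 3, 139951948 to 139955820), the replication clamp, rose after UV and had lower means after IR in both populations. Its promoter is shown because the UV change of Pcna differed from its IR change in both populations, with the single TGACG match, at -132, in capitals.
Pcna promoter, RefSeq GRCr8, chr3:139955771-139956070, minus strand: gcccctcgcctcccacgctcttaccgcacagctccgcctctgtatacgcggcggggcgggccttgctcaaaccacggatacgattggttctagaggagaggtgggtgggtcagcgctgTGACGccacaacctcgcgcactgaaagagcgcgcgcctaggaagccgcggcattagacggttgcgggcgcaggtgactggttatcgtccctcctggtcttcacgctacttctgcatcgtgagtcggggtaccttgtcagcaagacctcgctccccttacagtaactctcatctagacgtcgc
It held no match to TTTCGCGC, TTTGGCGC or TTCCCGCC (the E2F sites searched, in 2.68% of promoters) and none to the p53 response element (in 0.0598%). On M24604_g_at the CM-enriched fractions had 975.2, 1104 and 877.1 after UV, and 580.9 and 411.0 in controls. The fibroblasts had 1308, 626.6 and 1231 after UV, and 378.1, 402.4 and 349.7 in controls. All UV-treated arrays were above all controls, with fibroblast array 2 well below the other two. Pcna rose by 1.09 in CM-enriched fractions (SE 0.30, adjusted p = 0.0256, 2.12-fold) and by 1.42 in fibroblasts (SE 0.24, adjusted p = 9.13e-04, 2.67-fold). After IR the CM-enriched fractions had 418.4, 289.7 and 331.1, and 818.5, 622.0 and 437.7 in controls. The fibroblasts had 191.9, 206.4 and 213.4 after IR, and 438.3, 374.2 and 226.9 in controls. Every IR-treated array was below every control in its population and in its pair, but neither change passed, with -0.82 (SE 0.24, adjusted p = 0.197) in CM-enriched fractions and -0.71 (SE 0.24, adjusted p = 0.570) in fibroblasts. The other probe-set of Pcna, M24604_at, gave 0.69 (adjusted p = 0.160) and 1.16 (SE 0.25, adjusted p = 0.00433) after UV, and -0.83 (adjusted p = 0.206) and -0.32 (adjusted p = 0.914) after IR. The M24604_g_at call in CM-enriched fractions was lost without replicate 1 (adjusted p = 0.15), without replicate 2 (0.76, adjusted p = 0.288) and with IR and UV arrays only (adjusted p = 0.0915), and that in fibroblasts without replicate 1 (1.22, adjusted p = 0.0573).

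Of 54 genes listed for nuclear replication, 20 were measured, Pcna and Top1 included. Called after UV were 3 rises and 1 fall in CM-enriched fractions, near the 16.8% of all probe-sets called there, and 8 rises and 2 falls in fibroblasts, against 11.7% of all higher and 11.2% lower. The change after UV was above 0 for 13 of 20 in CM-enriched fractions and 14 of 20 in fibroblasts. Called after IR were 0 rises in both, and 4 falls in CM-enriched fractions and 1 in fibroblasts, against 0.446% lower and 0.0801% called of all. The list medians were 0.20 and 0.33 after UV and -0.48 and -0.20 after IR. Top2a, the topoisomerase that separates sister chromatids, fell after IR by 1.85 in CM-enriched fractions (adjusted p = 0.00329) and by 1.65 in fibroblasts (adjusted p = 0.0386). Mcm6, Mcm5 and Mcm7, subunits of the replicative helicase, fell by 1.39, 1.20 and 1.02 in CM-enriched fractions after IR (adjusted p = 0.00176, 0.0386 and 0.0143). In fibroblasts after UV, Mcm6 rose by 1.23 and Mcm7 by 1.02 (adjusted p = 1.68e-04 and 7.42e-04). Prim2, the large subunit of primase, fell after UV by 1.64 and 1.65 (adjusted p = 0.0224 and 0.00446), whereas Prim1, its catalytic subunit, rose by 0.96 and 1.22 (adjusted p = 0.0252 and 0.00106). In mitosis genes, 8 of 11 measured fell in CM-enriched fractions and 2 in fibroblasts after IR, and after UV 1 rose and 0 fell in each population. The shares of all probe-sets given above apply here too. Over the 35 arrays, the genes whose log2 values were most like those of Pcna M24604_at were Rfc4, a subunit of the clamp loader (Pearson r 0.875), Fen1 (0.862) and Rpa2, a subunit of the single-strand binding protein (0.828). These points share treatments and populations, so that r is a description.

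**Figure D3:**
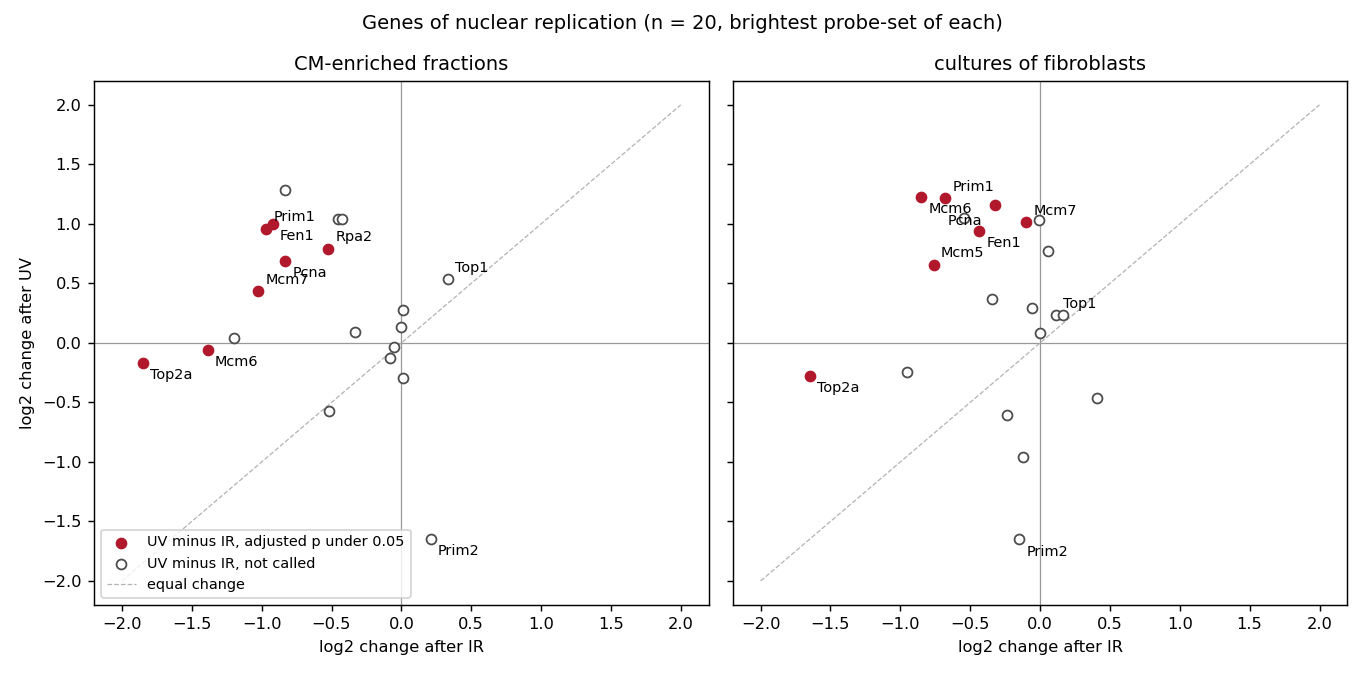
Log2 change after UV (vertical) against log2 change after IR (horizontal) for the 20 measured genes of nuclear replication in CM-enriched fractions (left) and cultures of fibroblasts (right). Filled points are the 7 genes in each population for which the UV change minus the IR change passed an adjusted p of 0.05; all 14 lie above the dashed line of equal change.

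Polg2 (chromosome 10, 92212303 to 92222849), which serves the mitochondrial DNA polymerase, had the largest fitted change among the 13 probe-sets. The CM-enriched fractions had 71.3, 58.6 and 99.7 after UV, while 1 control lay at the floor of 6.88 and the other had 7.51. The fibroblasts had 75.6, 76.0 and 76.3 after UV, and 23.3, 13.6 and 26.2 in controls. The UV-treated arrays of both populations overlapped and were above all others, and the sham-UV CM arrays were below all others, including the sham-irradiated CM arrays of the IR experiments (30.2, 16.9 and 33.4). The rise was 3.17 in CM-enriched fractions (SE 0.34, adjusted p = 6.74e-05) and 1.91 in fibroblasts (SE 0.28, adjusted p = 2.67e-04, 3.75-fold). Because 1 control array sits at the floor, the size in CM-enriched fractions depends on where the floor is set, and it was 1.40 with the floor at the 40th percentile of all values. The call there was lost without replicate 1 (adjusted p = 0.052), and that in fibroblasts held under all 11 alternatives. After IR, Polg2 changed by 0.11 and 0.00 (adjusted p = 1 in both). Of 12 genes listed for upkeep of mitochondrial DNA, 3 were measured: Lig3, a ligase of nucleus and mitochondria, rose by 1.78 in CM-enriched fractions after UV (adjusted p = 0.0490), and in fibroblasts only Polg2 was called. The genes most like Polg2 over the 35 arrays were Nup50, a nucleoporin (r 0.791), Ehmt2, a histone methyltransferase (0.762), and Phaf1 (0.751).

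Top1 (chromosome 3, 169713195 to 169796330), which relaxes supercoiled DNA, rose by small steps. The CM-enriched fractions had 372.4, 308.8 and 288.8 after UV, and 236.5 and 230.3 in controls, without overlap. Their change was 0.54 (SE 0.09, adjusted p = 0.00161, 1.45-fold). In fibroblasts the values were 298.5, 298.5 and 369.8 after UV, and 247.6, 253.0 and 321.5 in controls, which overlap, with a change of 0.24 (SE 0.07, adjusted p = 0.0366) that 7 of 11 alternatives did not call (highest adjusted p 0.328). The call in CM-enriched fractions was lost without replicate 1 (adjusted p = 0.0823) and without pairing (adjusted p = 0.0639). After IR the CM-enriched fractions had 401.1, 304.4 and 320.0, all above their controls of 297.9, 246.4 and 267.6, with a change of 0.33 that did not pass (SE 0.07, adjusted p = 0.0718).

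The contrast of UV with IR was tested directly as the UV change minus the IR change, each against its own controls. In CM-enriched fractions 4 probe-sets were higher and 1 lower, against 9.02% of all probe-sets (4.46% higher and 4.55% lower). In fibroblasts 5 were higher and 1 lower, against 14.4% of all (7.12% higher and 7.27% lower). The median difference was 0.43 in CM-enriched fractions and 0.52 in fibroblasts, beside 0.00 over all probe-sets. Polg2 (3.06, SE 0.44, adjusted p = 0.00122, and 1.91, SE 0.39, adjusted p = 0.00579) and Pcna were called in both populations, but the Polg2 difference in CM-enriched fractions, with sham-UV controls at or near the floor, was 1.84 with a pseudocount of 16 and 1.37 with the floor at the 40th percentile. For Pcna the difference was 1.91 and 2.13 on M24604_g_at (adjusted p = 0.00883 and 0.00118) and 1.52 and 1.48 on M24604_at (adjusted p = 0.0332 and 0.0135). Mgmt was the one lower in both, with -1.80 (SE 0.23, adjusted p = 6.61e-04) and -2.06 (SE 0.21, adjusted p = 4.81e-05). Apex1 was called in CM-enriched fractions (1.11, SE 0.18, adjusted p = 0.00258) and not in fibroblasts (0.31, adjusted p = 0.280). Polb rc_AA957640_s_at was called in fibroblasts (1.08, SE 0.24, adjusted p = 0.00837) and not in CM-enriched fractions (0.15, adjusted p = 0.869), where its mean was higher after IR too. Parp1 rc_AA964849_at was called in fibroblasts only (0.94, SE 0.26, adjusted p = 0.0314), with 8 of 11 alternatives losing the call. The brighter Parp1 probe-set, U94340_at, was not called for this difference in either population. The Pcna M24604_at call in CM-enriched fractions was lost under 7 of 13 alternatives. For Top1 and Ogg1 the difference did not pass in either population. Without replicate 1, 0 of the 5 calls remained in CM-enriched fractions and 1 of 6, that of Mgmt, in fibroblasts, and without replicate 2 or 3 there were 3 in CM-enriched fractions.

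**Figure D4:**
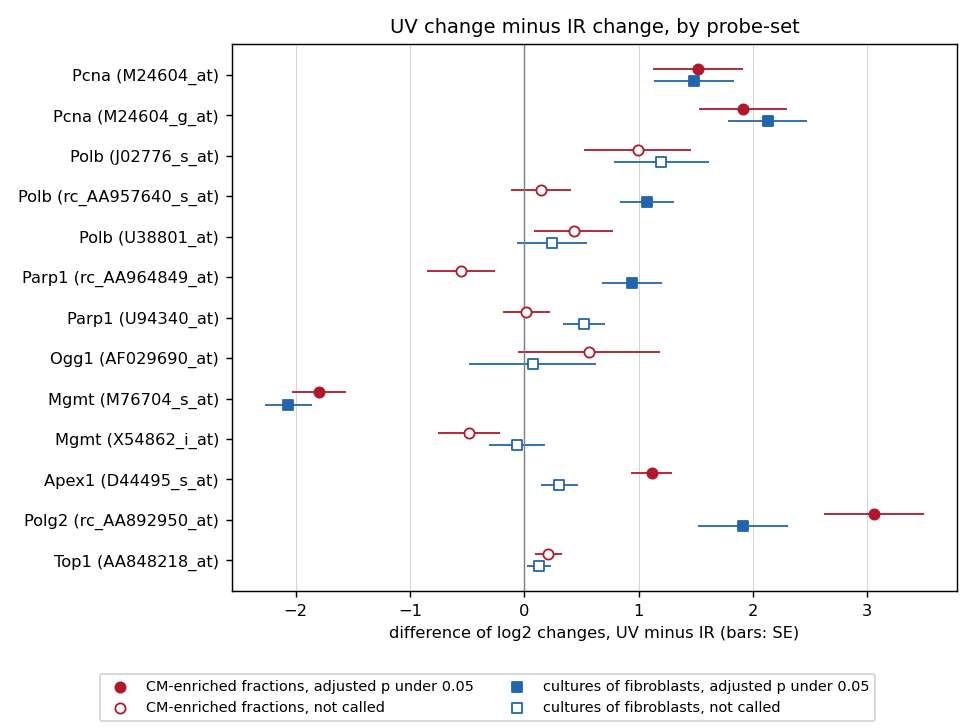
Difference between the UV change and the IR change of each probe-set (log2, with standard errors), in CM-enriched fractions (red circles) and cultures of fibroblasts (blue squares). Filled symbols passed an adjusted p of 0.05: 5 in CM-enriched fractions and 6 in fibroblasts, with Mgmt M76704_s_at the only one of them below 0.

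Whether the populations differed in their change was tested as the CM change minus the fibroblast change. After UV 2 probe-sets were higher and 1 lower, against 6.35% of all (3.63% higher and 2.72% lower). The UV change of CM-enriched fractions was higher for Mgmt M76704_s_at (1.06, SE 0.23, adjusted p = 0.0196), which fell less there, and for Apex1 (0.80, SE 0.18, adjusted p = 0.0231), and lower for Parp1 U94340_at (-0.89, SE 0.20, adjusted p = 0.0249). Each of the 3 calls was lost whichever replicate was left out. Polg2 gave 1.26 (SE 0.44, adjusted p = 0.127), and -0.19 with the higher floor. After IR limma called 0 of 13, against 0.0686% of all, with 3 at an unadjusted p under 0.05, and Mgmt M76704_s_at had the largest of these differences relative to its error (0.79, SE 0.21, adjusted p = 0.364).

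The levels of untreated cells also differed: 4 of 13 probe-sets were higher and 3 lower in untreated CM than in untreated fibroblasts, against 33.4% of all (16% higher and 17.4% lower). The tests here cover sham-UV and sham-irradiated groups only, while the ranges on control arrays include unstretched cultures. By the methods, fibroblasts were subcultured to confluence in foetal bovine serum, and CM were kept in horse serum without subculture. Population and culture conditions therefore cannot be told apart in these levels. Parp1 U94340_at was higher in untreated CM by 2.04 (SE 0.10, adjusted p = 2.61e-13), with 300.7 to 762.3 on CM control arrays and 99.1 to 161.9 on fibroblast control arrays. Its mean was 644.5, 443.2 and 309.0 in CM controls of the UV, IR and MS experiments, whose myocyte markers summed to 73280 to 77400, 66150 to 72490 and 48190 to 57880, and the part of cell makeup in this was not tested. Pcna was higher in untreated CM by 0.79 on M24604_at (adjusted p = 0.00253) and 0.62 on M24604_g_at (adjusted p = 0.0230), as were 10 of 20 replication genes (Pcna included) and 11 of 11 mitosis genes. Mgmt M76704_s_at was lower by 1.44 (adjusted p = 1.87e-10), with 323.0 to 646.0 on CM control arrays and 848.6 to 1180 on fibroblast control arrays. The dim second probe-set, X54862_i_at, was not called and was not lower in CM. Its means in sham-UV and sham-irradiated controls were 82.8 and 51.3 in CM, and 59.6 and 51.9 in fibroblasts. Apex1 was lower by 0.55 (adjusted p = 8.88e-04) and Polg2 by 0.71 (adjusted p = 0.0105) (a value that rests on the sham-UV arrays near the floor). Without replicate 1 the calls of Pcna and Polg2 were lost and 4 of 7 remained, and without replicate 2 that of Apex1 was lost (adjusted p = 0.136). The call of Pcna M24604_g_at was also lost without replicate 3 (adjusted p = 0.0586), and that of Polg2 with a pseudocount of 16 (adjusted p = 0.0549) and the higher floor (0.10, adjusted p = 0.763). Ordered by level over the 12 groups, Mgmt M76704_s_at was highest in IR-treated fibroblasts and lowest in the UV-treated CM-enriched fractions, and in 5 of 11 neighbouring steps the ranges of the arrays did not overlap. For Pcna M24604_g_at and Polg2 only 2 of 11 steps were free of overlap, in both cases those below the UV-treated groups and above the lowest group. A step compares neighbours in the order only. For Pcna, UV-treated fibroblasts (626.6 to 1308) still overlapped with sham-irradiated CM (437.7 to 818.5), so the UV-treated groups were set apart only for Polg2. Apex1 had 1 such step, between UV-treated and stretched fibroblasts. The UV-treated groups were not set apart, as UV-treated fibroblasts (704.0 to 872.1) overlapped with unstretched fibroblasts (594.9 to 787.9).

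Cyclic stretch changed none of the enzymes detectably. By limma, 0 of 13 probe-sets were called in either population, against 0% of all, and 1 in CM-enriched cultures and 0 in fibroblasts had an unadjusted p under 0.05. That one was Top1, with 407.8, 506.7 and 469.8 in stretched CM-enriched cultures and 370.0, 436.2 and 398.0 in unstretched ones, a change of 0.20 (SE 0.07). The 13 changes ranged from -0.23 to 0.47 in CM-enriched cultures and from -0.11 to 0.20 in fibroblasts. Mgmt, which moved after both kinds of radiation, had 607.3, 515.3 and 645.0 in stretched CM-enriched cultures and 561.8, 550.0 and 646.0 in unstretched ones.

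Repair routes without a member on this list were sparsely covered by the array. Nucleotide excision repair had 6 of 28 genes measured, with 1 rise and 1 fall in CM-enriched fractions and 1 rise in fibroblasts after UV, beside 16.8% and 22.9% of all probe-sets called, and 0 called after IR. Translesion synthesis, which copies past damaged bases, had 4 of 10 measured. After UV it had 3 rises and 1 fall in CM-enriched fractions and 1 rise and 1 fall in fibroblasts, beside the same shares of all probe-sets. Rev1, a translesion polymerase, rose after UV by 1.10 and 0.62 (adjusted p = 0.00249 and 0.0138), while Rad18, the ligase that ubiquitylates Pcna at stalled forks, fell by 1.18 and 1.84 (adjusted p = 0.0301 and 2.92e-04). Ube2a and Ube2b, conjugating enzymes that work with Rad18, rose by 0.76 and 0.62 in CM-enriched fractions (adjusted p = 0.0260 and 0.0466). Double-strand break repair had 5 of 33: Lig4, the ligase of end joining, rose after UV by 2.29 and 2.31 (adjusted p = 5.50e-04 and 4.55e-05), and Xrcc5, a subunit of the end-binding Ku complex, fell by 2.35 in fibroblasts (adjusted p = 6.82e-04). After IR none of these genes was called. Of 6 measured p53 targets, Cdkn1a, Mdm2 and Ccng1 rose in both populations after UV and in CM-enriched fractions after IR. In fibroblasts after IR only Mdm2 passed, while Cdkn1a (1.18, adjusted p = 0.0863) and Ccng1 (0.53, adjusted p = 0.0586) fell short. Gadd45a, Fas and Zmat3 were not called after UV or IR. Of all probe-sets, 16.8% and 22.9% were called after UV and 0.732% and 0.0801% after IR. None of the 8 genes of mismatch repair was measured.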

How the data were processed

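Total RNA of 35 cultures was hybridised to 35 RG-U34A arrays. The deposited table holds 1 linear intensity per probe-set and array for 8799 probe-sets. The authors describe gcrma and VSN for their own model, but the software behind the deposited intensities is not given in the sources used here. The trimmed mean was 200.33 to 200.38 on 26 arrays and 1001.45 to 1001.7 on 9, so each array was scaled to a common 75th percentile (175), given a floor, the 20th percentile of all values (6.88), taken to log2 and quantile normalized. The higher level was that of all CM arrays of the IR experiments, sham-UV CM array 2 and UV-treated CM arrays 2 and 3. Every fibroblast array had the lower level, as had CM pair 1 of UV. The part of this level in the comparisons of populations was not tested. Control probe-sets (59) were left out. The array annotation paired 7006 probe-sets with 1 symbol, 308 with several and 1426 with none, and a rat gene table matched 6985. Positions and promoters are those of RefSeq in GRCr8.

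All arrays were fitted in limma 3.58.1 (R 4.3.3; lmFit, eBayes with a variance trend), two-sided, with the numbered experiment within population and stressor as a block, as in the study's model, leaving 11 residual degrees of freedom. Experiment numbers were read from the titles of the samples, where a missing number stands for 1. The deviations of paired arrays from their group means correlated at 0.0628 to 0.797 over 17 pairs, above 0.1 in 15. The untreated comparison used group means of the sham-treated UV and IR groups, without the block, and left out the unstretched cultures. The study took its experiments as independent. UV and IR had separate controls. P values were adjusted by Benjamini-Hochberg over 8740 probe-sets. The number of arrays limits the precision.

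The members and the 16 gene lists were chosen with earlier results of these data known. Named are every member, up to 4 genes of a list with the smallest adjusted p in a comparison, and the 3 genes most like Pcna and the member with the largest change. Genes of a list are represented by their brightest probe-set. Lists of smooth muscle, endothelial, leukocyte and erythroid markers were also counted: after UV 4 of 5 smooth muscle markers fell in fibroblasts and 2 of 5 in CM-enriched fractions, 2 of 6 leukocyte markers rose in fibroblasts and 1 fell in CM-enriched fractions, and 0 of 5 endothelial and 0 of 3 erythroid markers were called; after IR none was. These counts stand beside the same shares of all probe-sets as those of the other markers. The fit was tested on simulated data. Scan records of 16 arrays were read only for scan and lot. The alternatives tried were no block, a random block, scaling without quantile normalization, a pseudocount of 16, a floor at the 40th percentile (24.5), leaving out dim probe-sets, no variance trend, IR and UV arrays only, each replicate left out, and scan or lot as a block.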

Additional observations from a re-analysis of the deposited data

Results flagged for a closer look

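For 3 probe-sets the UV change differed between the populations by a test of the difference itself, the CM change minus the fibroblast change. Mgmt M76704_s_at gave 1.06 (SE 0.23, adjusted p = 0.0196), with changes of -0.78 in CM-enriched fractions and -1.84 in fibroblasts. Apex1 gave 0.80 (SE 0.18, adjusted p = 0.0231), with changes of 1.02 in CM-enriched fractions and 0.22 in fibroblasts. Parp1 U94340_at gave -0.89 (SE 0.20, adjusted p = 0.0249), with changes of -0.34 in CM-enriched fractions and 0.54 in fibroblasts. All 3 calls were lost whichever replicate was left out. That of Mgmt was also lost with IR and UV arrays only, and that of Apex1 without the replicate block. The second Parp1 probe-set gave -0.89 (adjusted p = 0.106), and the second Mgmt probe-set gave -0.73 (unadjusted p = 0.0202), opposite in sign to the first. Myocyte markers fell after UV in both populations, 4 of 15 in CM-enriched fractions and 13 of 15 in fibroblasts, against 8.16% and 11.2% of all probe-sets. Their part in these differences was not tested.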

How the results depend on the processing

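Of 37 calls of single probe-sets, 8 held under every alternative: Mgmt, Polb rc_AA957640_s_at and Polg2 in fibroblasts after UV, Apex1 in CM-enriched fractions after UV, the UV minus IR difference of Mgmt in fibroblasts, and the higher untreated level in CM of both Parp1 probe-sets and the lower one of Mgmt. Over 412 values of these calls under an alternative, 330 kept direction and call and 81 lost the call. The fits that leave out a replicate have fewer arrays, and without replicate 1 or without replicate 2 a single pair remains in CM-enriched fractions after UV. With 1 replicate left out in turn, the counts of called probe-sets ranged from 1 to 6 in CM-enriched fractions after UV (7 in the full fit), from 4 to 5 in fibroblasts after UV (8), were 0 each time in CM-enriched fractions after IR (1), and ranged from 0 to 3 (5) and from 1 to 4 (6) for UV minus IR in CM-enriched fractions and fibroblasts. For the CM minus fibroblast change after UV they were 0 each time (3), and for untreated cells they ranged from 4 to 8 (7). With IR and UV arrays only, 0 were called in CM-enriched fractions after IR and 3 for UV minus IR there, and blocking on lot left 0 after IR. Scaling without quantile normalization gave 2 there (Mgmt and Top1). Directions turned for Ogg1 in CM-enriched fractions after UV without replicate 1 (leave-one-out range -0.58 to 1.71) and for Polb J02776_s_at in untreated cells without replicate 1 (range -0.60 to 0.091), neither of them a call in the full fit, and with the floor at the 40th percentile for Polg2 in the CM minus fibroblast change after UV (-0.19) and in untreated cells (0.10). Where not stated, the cause was not tested. Without the replicate block (no pairing), 5 probe-sets were called in CM-enriched fractions and 7 in fibroblasts after UV, 1 in CM-enriched fractions after IR, 5 and 4 for UV minus IR, and 2 for the CM minus fibroblast change after UV. The deposited table has no detection calls, so that values near the floor have no order.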
